A study of Homo sapiens and Mus musculus with 4 samples.

Results

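The Ikaros family of zinc finger transcription factors was examined as the 5 human genes IKZF1, IKZF2, IKZF3, IKZF4 and IKZF5 and the 5 mouse genes of the same symbols. These 10 genes were taken by symbol from a table of 60736 genes, of which 32738 were human and 27998 were mouse. Messenger RNA had been measured by bulk RNA sequencing in 4 established lymphoid cell lines, with 1 library per line and no treatment. Jurkat is a human T-cell leukemia line used by the study as a CD4 T-cell line, and TALL104 is a human T-cell leukemia line of CD8 type that was grown with interleukin-2 and used as a CD8 T-cell line. EL4 came from a T-cell lymphoma of a mouse and was used as a CD4 T-cell line. IVA12 is a hybridoma, that is a line made by fusing cells, and served as the mouse B-cell line. All 4 are lines that grow in culture, so they stand for themselves and not for the blood cells they came from.

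Ikaros family proteins bind DNA through a group of zinc fingers near the amino end and bind each other through a pair of zinc fingers at the carboxyl end, so that members form dimers. IKZF1 (Ikaros) and IKZF3 (Aiolos) act in B and T lymphocyte development, IKZF2 (Helios) and IKZF4 (Eos) are known from T cells, regulatory T cells among them, and IKZF5 (Pegasus) is the most distant member and is expressed in many tissues. The proteins recruit chromatin complexes such as NuRD to repress or maintain genes, and IKZF1 is often deleted in acute lymphoblastic leukemia of B-cell type. Lenalidomide and related drugs bind cereblon, a substrate receptor of a ubiquitin ligase, and bring IKZF1 and IKZF3 to it for degradation.

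The second zinc finger of the DNA-binding group is the part of the protein that the drug-bound cereblon grips, and a glutamine in it is needed for the degradation of IKZF1 and IKZF3. The coding bases of this finger are shown because they hold the difference that sets the members apart in that respect. They were read from the reference genomes, 69 bases each, 5′ to 3′ on the coding strand, and the capitals mark the codon just before the first zinc-binding cysteine.
IKZF1: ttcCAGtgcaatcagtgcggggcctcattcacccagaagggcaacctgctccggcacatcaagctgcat
IKZF3: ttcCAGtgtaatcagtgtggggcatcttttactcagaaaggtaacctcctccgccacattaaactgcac
IKZF2: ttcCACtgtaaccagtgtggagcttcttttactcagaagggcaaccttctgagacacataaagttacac
IKZF4: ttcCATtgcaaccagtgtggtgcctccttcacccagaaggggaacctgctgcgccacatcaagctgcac
Ikzf1: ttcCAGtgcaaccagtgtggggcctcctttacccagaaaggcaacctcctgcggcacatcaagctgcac

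The IKZF1 stretch lies in exon 6 at chr7:50450249-50450317 (hg19, plus strand) and the IKZF3 stretch in exon 5 at chr17:37947757-37947825 (minus strand). That of IKZF2 lies in exon 5 at chr2:213914525-213914593 (minus strand) and that of IKZF4 in exon 9 at chr12:56421575-56421643 (plus strand). Mouse Ikzf1 carries it in exon 6 at chr11:11754018-11754086 (mm10, plus strand). Compared with IKZF1, 13 bases differed in IKZF3, 17 in IKZF2, 9 in IKZF4 and 8 in mouse Ikzf1. Translated, IKZF3 and mouse Ikzf1 had the same residues as IKZF1, and the only change in IKZF2 and IKZF4 was Q2H, with positions counted from 1 at the first codon printed. Mouse Ikzf3 also had no residue change, and mouse Ikzf2 and Ikzf4 had Q2H as well. IKZF5 is not shown, because its closest finger, finger 5, differed from the IKZF1 stretch in 15 residues.

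Depth was similar among the libraries, with totals of 34783047 (Jurkat) and 28345951 reads (TALL104) for the human lines and of 32149319 (EL4) and 25286728 reads (IVA12) for the mouse lines, recovered from the deposited FPKM (fragments relative to the length of the gene and the size of the library). The members' values are given with an exact Poisson 95% interval of the reads behind them, which covers counting error only, and those of other genes without one. With 1 library per line, no test between lines was possible, and a difference is described by its size: a gene counts as higher in a line where its ratio of FPKM + 1 passes 1.5-fold. A gene is called detected at 1 FPKM or more. The identity of the lines was checked on marker genes. The 10 T cell markers summed to 1124 and 974 FPKM in the human lines Jurkat and TALL104 and to 740 and 13.3 in the mouse lines EL4 and IVA12, and the 12 B and plasma cell markers to 99.9, 132, 17.1 and 2154 FPKM in the same order. CD3E, a chain of the T-cell receptor complex, was at 166 FPKM in Jurkat and 233 in TALL104, and Cd3e was at 63.6 in EL4 and 0.0275 in IVA12. Jchain, the joining chain of secreted antibodies, was at 0.148 FPKM in EL4 and 1289 in IVA12, and Ms4a1, the B-cell surface protein CD20, was listed at 0 in EL4 and was at 46.5 in IVA12. Jchain alone held most of the IVA12 sum, and 7 of the 12 B and plasma cell markers reached 1 FPKM there. Among those that did not were Cd79a at 0.0543 FPKM, Pax5 at 0.156 and Blk at 0.0320, named after their values were seen. CD79A was at 16.5 FPKM in Jurkat and 24.6 in TALL104. The coreceptor genes, looked up after their values were seen, were compared with the labels CD4 and CD8. CD8A was at 0.601 FPKM in Jurkat and 28.3 in TALL104. CD4 was at 0.985 and 0.0308 FPKM, so it stayed under the detection level in the line used as a CD4 line, and Cd4 was at 0.208 in EL4 and listed at 0 in IVA12. JCHAIN was at 0.0513 FPKM in Jurkat and 0.588 in TALL104, and MS4A1 at 0.0236 and 0.384.

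IKZF1, the founding member of the family, was the most abundant of the 5 genes in all 4 lines. The gene ENSG00000185811 spans chr7:50343664-50472799 on the plus strand of hg19. It was at 49.2 FPKM in Jurkat (95% interval 48.5 to 50.0, 16747 reads) and 48.4 FPKM in TALL104 (47.6 to 49.2, 13426 reads). These intervals overlapped, and the ratio of Jurkat to TALL104 was 1.02 on the FPKM scale (0.994 to 1.04), so the 2 human T lines were not told apart by counting error alone. The level exceeded that of 92.6% of the detected human genes in Jurkat and 93.7% in TALL104.

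In mouse, Ikzf1 (ENSMUSG00000018654, chr11:11685003-11772926, mm10, plus strand) differed strongly between the T and the B line. It was at 297 FPKM in EL4 (295 to 299, 55158 reads) and 73.8 FPKM in IVA12 (72.4 to 75.2, 10776 reads), a ratio of 4.03 (3.94 to 4.11). In bulk RNA, fewer expressing cells and less RNA per cell cannot be told apart. EL4 held the highest level of any member in any line, and Ikzf1 ranked 140 among the mouse genes there, against rank 711 in IVA12. Even the lower of the 2 levels exceeded that of 92.75% of the detected mouse genes. The 4 values lay in the order EL4, IVA12, Jurkat, TALL104, of which the last pair had overlapping intervals. Values of the 2 species are set side by side only, since each rests on its own gene models.

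IKZF3, or Aiolos, shares the cereblon-binding finger of IKZF1 and was on at a clear level in 1 line of each species. The gene ENSG00000161405 lies at chr17:37913971-38020565 on the minus strand of hg19. It was at 2.02 FPKM in Jurkat (1.74 to 2.32, 195 reads) and 21.3 FPKM in TALL104 (20.3 to 22.3, 1675 reads). TALL104 stood 10.5 times above Jurkat on the FPKM scale (9.08 to 12.3), the widest gap among the human members detected in both lines. In Jurkat the gene exceeded 11.6% of the detected genes, and in TALL104 it exceeded 80.0% of them. The gene length behind these values came out as 2778 bases or a whole multiple of it, against 10129 annotated exon bases, so the reads are minimum values and the intervals may be too wide.

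Mouse Ikzf3 (ENSMUSG00000018168, chr11:98464902-98546031, mm10, minus strand) was the higher in the T line. It was at 19.3 FPKM in EL4 (18.8 to 19.8, 5429 reads) and 1.62 FPKM in IVA12 (1.46 to 1.80, 359 reads), a ratio of 11.9 (10.7 to 13.3). Over the 4 lines the order was TALL104, EL4, Jurkat, IVA12, with TALL104 and EL4 near 20 FPKM and overlapping intervals for Jurkat and IVA12. Since the human intervals may be too wide, that overlap is uncertain. Aiolos is commonly listed with B-cell genes, and here its level in the B hybridoma was below that in the T line of the same species.

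IKZF2, or Helios, was on in the 3 T lines and close to absent in the B hybridoma. The human gene ENSG00000030419 (chr2:213864415-214017151, hg19, minus strand) was at 35.8 FPKM in Jurkat (35.2 to 36.4, 15216 reads) and 21.0 FPKM in TALL104 (20.5 to 21.5, 7275 reads). Jurkat was 1.70 times above TALL104 on the FPKM scale (1.66 to 1.75), and the log2 ratio of FPKM + 1 was 0.74. It was the only member that passed 1.5-fold toward Jurkat, and it no longer passed at 2-fold.

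Mouse Ikzf2 (ENSMUSG00000025997, chr1:69531214-69687245, mm10, minus strand) was at 23.7 FPKM in EL4 (23.2 to 24.1, 8830 reads) and 0.0102 FPKM in IVA12 (0.00211 to 0.0299, 3 reads). The ratio was 2315, with a counting interval of 792 to 11228 because of the 3 reads in IVA12. The log2 ratio of FPKM + 1 was 4.61, the largest of the 10 members on that scale. The order of the 4 levels was Jurkat, EL4, TALL104, IVA12, and no neighboring intervals overlapped. These intervals cover counting error only and not the different gene models of the species, so the order across species is uncertain.

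IKZF4, or Eos, was the lowest member in 3 of the 4 lines and reached 1 FPKM in TALL104 alone. The human gene ENSG00000123411 (chr12:56401443-56432219, hg19, plus strand) was at 0.00845 FPKM in Jurkat (0.00102 to 0.0305, 2 reads) and 1.28 FPKM in TALL104 (1.13 to 1.45, 247 reads). The ratio of TALL104 to Jurkat was 152 on the FPKM scale with a counting interval of 41.5 to 1258, and the log2 ratio of FPKM + 1 was -1.18, Jurkat over TALL104. Even in TALL104 the level exceeded only 3.62% of the detected genes, and it was the lowest of the 5 members there too.

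Mouse Ikzf4 (ENSMUSG00000002578, chr10:128630843-128645991, mm10, minus strand) was at 0.182 FPKM in EL4 (0.126 to 0.253, 35 reads) and 0.0396 FPKM in IVA12 (0.0145 to 0.0861, 6 reads). The ratio of 4.59 (1.91 to 13.3) lay above 1 by counting error, but both lines were below the detection level, and on FPKM + 1 the log2 ratio was 0.18. Eos messenger RNA was therefore undetected at 1 FPKM in both mouse lines.

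IKZF5, or Pegasus, had the narrowest range of FPKM ratios over the 4 lines together, while in the human pair alone IKZF1 had the smaller ratio. The human gene ENSG00000095574 (chr10:124750323-124768328, hg19, minus strand) was at 9.72 FPKM in Jurkat (9.25 to 10.2, 1630 reads) and 10.6 FPKM in TALL104 (10.1 to 11.2, 1453 reads). TALL104 was 1.09 times above Jurkat (1.02 to 1.17). Mouse Ikzf5 (ENSMUSG00000040167, chr7:131388652-131410521, mm10, minus strand) was at 6.88 FPKM in EL4 (6.51 to 7.27, 1266 reads) and 9.17 FPKM in IVA12 (8.68 to 9.67, 1326 reads). IVA12 was 1.33 times above EL4 (1.23 to 1.44), so Ikzf5 was the only mouse member with the larger value in the B line, and its log2 ratio of FPKM + 1, EL4 over IVA12, was -0.37, inside the 1.5-fold limits. Pstk, a gene for an enzyme of selenocysteine synthesis on the opposite strand, shares 81.3% of the annotated exon bases of Ikzf5. Whether reads were counted by strand is not given in the sources used here, and Pstk was listed at 2.07 FPKM in EL4 and 3.80 in IVA12. For the other 9 members, another gene covered at most 2.47% of the exon bases.

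**Figure D1:**
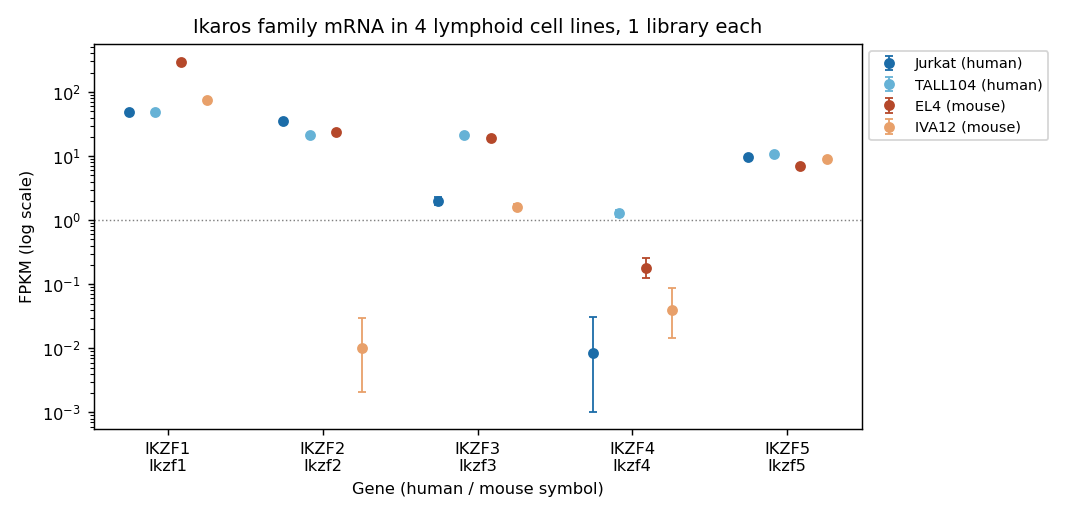
FPKM of each Ikaros family gene (log axis) in the 4 libraries, with exact Poisson 95% intervals as bars, which are smaller than the points where reads were many, and a dotted line at 1 FPKM. IKZF1 heads every line, IKZF5 stays between 6.88 and 10.6 FPKM, and IKZF4 in 3 lines and Ikzf2 in IVA12 lie below 1 FPKM.

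The 5 human genes summed to 96.8 FPKM in Jurkat and 102.6 FPKM in TALL104, and the 5 mouse genes to 347 FPKM in EL4 and 84.6 in IVA12. The sums of the 2 human lines were thus close while their composition was not. In Jurkat, IKZF1 held 50.9% of the sum, IKZF2 37.0%, IKZF5 10.05%, IKZF3 2.09% and IKZF4 0.0087%. In TALL104 the shares were 47.2% for IKZF1, 20.5% for IKZF2, 20.7% for IKZF3, 10.4% for IKZF5 and 1.25% for IKZF4. The share of IKZF2 was smaller and that of IKZF3 larger in TALL104, with IKZF1 in front in both lines.

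In the mouse lines a single gene held most of the sum. Ikzf1 made up 85.6% of it in EL4 and 87.2% in IVA12. The remainder differed: in EL4 it was 6.82% Ikzf2, 5.56% Ikzf3 and 1.98% Ikzf5, and in IVA12 it was 10.8% Ikzf5, 1.92% Ikzf3 and 0.0121% Ikzf2. Ikzf4 held 0.0523% in EL4 and 0.0468% in IVA12. Counted as shares of reads, without the division by gene length, IKZF1 held 49.6% in Jurkat and 55.8% in TALL104, and Ikzf1 held 78.0% in EL4 and 86.4% in IVA12. On that scale IKZF3 held 0.577% in Jurkat and 6.96% in TALL104, but its reads are minimum values, so the human shares of reads are uncertain. Summed, the members that carry the glutamine of the cereblon finger were in front in all 4 lines, through IKZF1 or Ikzf1 in each. This describes messenger RNA and the finger sequence only. Human and mouse cereblon were not compared in sequence, and drug-induced degradation was not measured in the human or the mouse lines. In TALL104 the levels of IKZF2 and IKZF3 had overlapping intervals, and in no other line were they within counting error of each other.

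**Figure D2:**
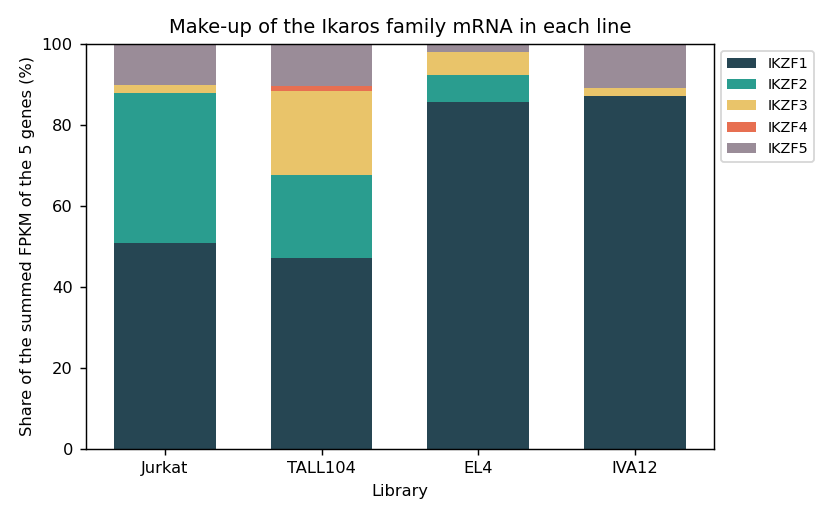
Share (%) of the summed FPKM of the 5 Ikaros family genes held by each gene, in 1 stacked bar per library. IKZF1 takes 47.2% to 50.9% in the human lines and 85.6% to 87.2% in the mouse lines, and IKZF3 widens from 2.09% in Jurkat to 20.7% in TALL104.

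The comparison of Jurkat with TALL104 sets the human line used as a CD4 T-cell line, in which CD4 was under 1 FPKM, against the line used as a CD8 T-cell line. Of the 5 human members, 3 passed 1.5-fold, where 25.3% of all 32738 human genes did, or 62.6% of the 12214 genes that reached 1 FPKM in either line. IKZF2 was higher in Jurkat, as were 13.8% of all genes and 34.2% of those at 1 FPKM. IKZF3 and IKZF4 were higher in TALL104, as were 11.4% and 28.4%. All 5 members reached 1 FPKM in either line, and a count of 3 of 5 is near the share among such genes. The log2 ratios of FPKM + 1, Jurkat over TALL104, ran from 0.74 for IKZF2 over 0.02 for IKZF1 and -0.12 for IKZF5 to -1.18 for IKZF4 and -2.88 for IKZF3. The median log2 ratio was 0 over all genes and 0.10 over the genes at 1 FPKM.

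The comparison of EL4 with IVA12 sets a mouse T line against a B hybridoma. Here 3 of the 5 members passed 1.5-fold, against 21.0% of all 27998 mouse genes and 50.3% of the 10801 genes at 1 FPKM in either line. Ikzf4 stayed under 1 FPKM in both lines, so the latter share bears on the other 4 members. Ikzf1, Ikzf2 and Ikzf3 were all higher in EL4, as were 9.75% of all genes and 23.8% of those at 1 FPKM. No member was higher in IVA12, where 11.2% of all genes and 26.5% of those at 1 FPKM were. The log2 ratios of FPKM + 1, EL4 over IVA12, were 4.61 for Ikzf2, 2.95 for Ikzf3, 1.99 for Ikzf1, 0.18 for Ikzf4 and -0.37 for Ikzf5, and the median of the genes at 1 FPKM was -0.04. The T and B markers moved in the same comparison, with 9 of 10 T markers higher in EL4 and 8 of 12 B and plasma cell markers higher in IVA12, and their part in the result was not tested. In the human pair 4 T markers were higher in Jurkat and 2 in TALL104, and of the B and plasma cell markers 1 was higher in Jurkat and 6 in TALL104.

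**Figure D3:**
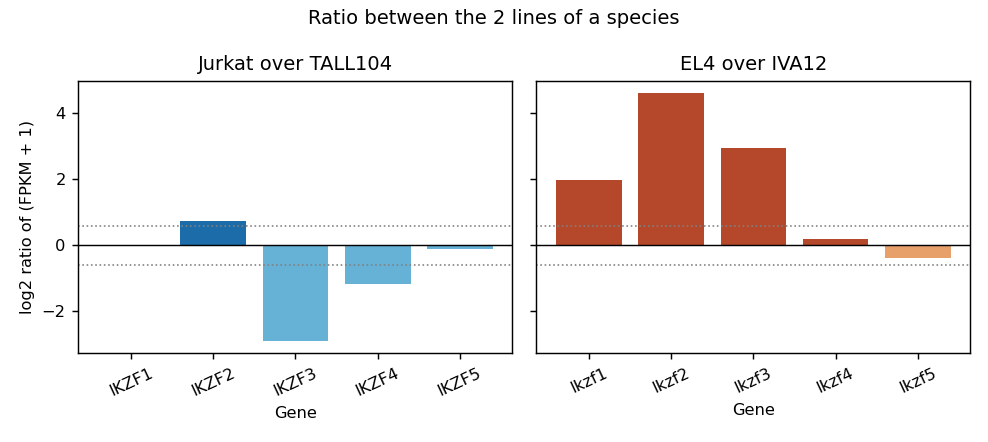
Log2 ratio of FPKM + 1 for each member, Jurkat over TALL104 on the left and EL4 over IVA12 on the right, colored by the line with the higher value, with dotted lines at 1.5-fold. Human members point both ways, from 0.74 to -2.88, while the 3 mouse members past the limits all point to EL4.

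The members are similar in their coding bases, as the finger shows, so shared stretches were counted. Over the annotated transcripts, the longest stretch shared without a mismatch by 2 members of a species was 33 bases, between IKZF1 and IKZF3, and 0 of 20 pairs of members shared a stretch as long as a read. Between the species, identical stretches were longer. The longest was 128 bases for IKZF2, 110 for IKZF4 and 104 for IKZF1, and it was 47 for IKZF5 and 38 for IKZF3. In a library of the other species, a member had at most 21 reads.

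Genes with the most similar pattern were sought among 15550 symbols found once in each species, by the Euclidean distance of log2(FPKM + 1) over the 4 libraries, for the 4 members that reached 10 FPKM. A smaller distance means more alike, and with 4 points this is a description only. Nearest to IKZF2 was THEMIS, a regulator of thymocyte selection, at a distance of 0.475, with 26.6 and 21.5 FPKM in Jurkat and TALL104 and 20.1 and 0.00438 in EL4 and IVA12. SH3KBP1 at 0.582 and DAP at 0.598 followed. Like IKZF2, all of these genes were above 20 FPKM in the 3 T lines and below 1 FPKM in IVA12.

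IKZF5 had the closest neighbors, TBC1D23 at 0.162 and RANBP10 and EPM2AIP1 at 0.231 each, all with values between 6.27 and 12.3 FPKM. For IKZF1 the nearest were RPL26, a ribosomal protein gene, at 0.879, ARL6IP1 at 0.967 and ACTR3, a subunit of the actin-nucleating ARP2/3 complex, at 0.978. For IKZF3 they were ARAP2 at 0.936, NLRC5, an activator of MHC class I genes, at 0.982 and GLIPR1 at 1.06. ARAP2 followed the IKZF3 order of lines, with 20.1 FPKM in TALL104, 9.85 in EL4, 2.38 in Jurkat and 1.34 in IVA12. Among the members themselves the smallest distance was 3.15, between IKZF3 and IKZF5. The nearest genes were picked from 15550 symbols, so their smaller distances follow from the larger search and are not compared with this one.

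Most of the partners through which Ikaros proteins act were detected. Of 14 NuRD genes, 13 reached 1 FPKM in each of the 4 libraries, and CHD5 and Chd5 did in none. CHD4, the remodeling ATPase of the complex, was at 83.7 FPKM in Jurkat and 62.5 in TALL104, and Chd4 was at 73.4 in EL4 and 71.3 in IVA12. In the human pair 7 of the 14 were higher in Jurkat, 1 in TALL104 and 6 in neither. Among all genes at 1 FPKM in either line, 34.2% were higher in Jurkat and 28.4% in TALL104. The median log2 ratio of the list was 0.66, against 0.10 for those genes. The largest ratios were those of the histone-binding RBBP4, at 81.6 and 26.7 FPKM in Jurkat and TALL104, and the deacetylase HDAC2, at 20.9 and 7.62. In the mouse pair 3 were higher in EL4, 1 in IVA12 and 10 in neither, with a median of 0.11. Neither count lay above the shares among all genes at 1 FPKM, 23.8% for EL4 and 26.5% for IVA12. Chd3, an alternative ATPase, was at 34.1 FPKM in EL4 and 2.55 in IVA12, and Rbbp7 at 304 and 67.6, while Chd4 was level. Mta3 went the other way, at 6.10 FPKM in EL4 and 18.3 in IVA12, and is named after its values were seen.

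Of the 4 other corepressor genes, CTBP2 was under 1 FPKM in both human lines. In the human pair 1 gene was higher in TALL104, and in the mouse pair 2 were higher in IVA12. The median log2 ratios were -0.28 and -0.58, and the human median was -0.53 with a pseudocount of 0.1. SIN3B was at 5.77 FPKM in Jurkat and 10.3 in TALL104, and CTBP1, which binds Ikaros directly, at 19.1 and 15.9. In mouse, Ctbp2 was listed at 0 in EL4 and was at 2.01 FPKM in IVA12. Sin3a, at 26.5 and 40.3, was only just past 1.5-fold on FPKM + 1. The kinase CK2 phosphorylates Ikaros and the phosphatase PP1 reverses this. Of their 6 subunit genes, 3 were higher in Jurkat and 0 in TALL104, with a median of 0.62, CSNK2A1 at 59.5 and 25.8 FPKM and PPP1CC at 49.0 and 22.5 leading. In mouse none of the 6 passed 1.5-fold, with a median of 0.04, and Csnk2a1 at 30.0 and 39.4 FPKM and Csnk2a2 at 27.2 and 22.1 had the largest ratios. For both lists, the shares among all genes at 1 FPKM were 34.2% (Jurkat), 28.4% (TALL104), 23.8% (EL4) and 26.5% (IVA12).

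CRBN, which encodes cereblon, was at 9.36 FPKM in Jurkat and 10.1 in TALL104, and Crbn was at 9.78 in EL4 and 5.71 in IVA12. The 6 genes of its ligase were detected in all 4 lines. In the human pair DDB1 was higher in Jurkat, at 38.3 against 17.5 FPKM, and CUL4A in TALL104, at 48.6 against 31.2, with a median log2 ratio of 0.29. In the mouse pair Cul4a, at 26.6 and 8.38 FPKM, and Crbn were higher in EL4, with a median of 0.15. Of the other proteins that cereblon drugs degrade, 3 of 5 human genes were higher in Jurkat, with a median of 0.70. Among them were the translation termination factor GSPT1, at 42.9 and 17.5 FPKM, and ZFP91, at 32.5 and 18.6. SALL4 was under 1 FPKM in both human lines. Of the 4 found under the same symbol in mouse, 2 were higher in EL4, with a median of 0.66, or 0.58 without genes under 1 FPKM in both lines. Of these 2, Sall4 was at 0.674 FPKM in EL4 and listed at 0 in IVA12, so it was undetected in both. Gspt1 had the larger value in IVA12, at 92.9 FPKM against 73.4, inside 1.5-fold. Csnk1a1 was at 46.1 FPKM in EL4 and 25.7 in IVA12, and Zfp91, at 31.2 and 20.6, stayed just inside 1.5-fold on FPKM + 1.

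Among 21 genes known to be bound or controlled by Ikaros family proteins, 12 were higher in Jurkat, 5 in TALL104 and 4 in neither, with a median log2 ratio of 0.95. The shares of all genes were 13.8% and 11.4%, and of those at 1 FPKM 34.2% and 28.4%. The median was 1.54 when genes under 1 FPKM in both lines were left out and 2.24 with a pseudocount of 0.1. DNTT, the terminal transferase of antigen receptor rearrangement, was at 63.5 FPKM in Jurkat and 0.0519 in TALL104, where it had 3 reads. IGLL1, a surrogate light chain gene that Ikaros binds, was at 33.5 and 0.0780 FPKM, with 2 reads in TALL104. In the mouse pair 5 were higher in EL4, 6 in IVA12 and 10 in neither, with a median of 0.00. The shares were 9.75% and 11.2% of all genes, and 23.8% and 26.5% of those at 1 FPKM. Only 8 of the 21 reached 1 FPKM in either mouse line, so counts over 21 do not match the latter shares. All 8 passed 1.5-fold, namely Dntt, Il7r, Bcl2 and Cdk6 toward EL4 and Hes1, Dtx1, Myc and Irf4 toward IVA12. Tbx21, Notch3 and Bcl6 passed the limit with under 1 FPKM in both mouse lines. Dntt was at 81.0 FPKM in EL4 and 0.0929 in IVA12, and the cell cycle kinase gene Cdk6 at 79.5 and 0.147. Toward IVA12 went Irf4, at 9.73 FPKM in EL4 and 151 in IVA12, and Myc, at 51.9 and 195, named after their values were seen. In mouse, the median moved to 1.13 when genes under 1 FPKM in both lines were left out. DNTT and Dntt were thus at 63.5 FPKM or more in Jurkat and EL4 and under 0.1 FPKM in TALL104 and IVA12.

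The T-cell markers with the largest ratios in the human pair were CD28, at 57.4 FPKM in Jurkat and 0.989 in TALL104, and CD2, at 86.0 and 15.6, with a median of 0.21 for the list. The 2 that were higher in TALL104 were CD7, at 20.7 and 95.4 FPKM, and ZAP70, at 64.5 and 99.8, named here after their values were seen. In the mouse pair they were Cd3d, at 197 and 0.0299 FPKM, and Cd3g, at 176 and 1.15, with a median of 5.77. For B and plasma cell markers PRDM1, at 0.393 and 7.32 FPKM, and CD79B, at 0.0415 and 4.80, led in the human pair, with a median of -0.57, or -0.91 without genes under 1 FPKM in both lines and -1.14 with a pseudocount of 0.1. The only one higher in Jurkat was MZB1, at 47.7 and 8.88 FPKM, also named after its values were seen. In the mouse pair Jchain and Mzb1, at 0.172 and 499 FPKM, led, with a median of -2.52, or -5.57 without genes under 1 FPKM in both lines and -4.11 with a pseudocount of 0.1. Of the myeloid markers ITGAM was at 0.0406 FPKM in Jurkat and 1.47 in TALL104. The other 4 human markers were under 1 FPKM, and the median of the list was 0.00. All 3 found under the same symbol in mouse were under 1 FPKM, with a median of 0.03.

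**Figure D4:**
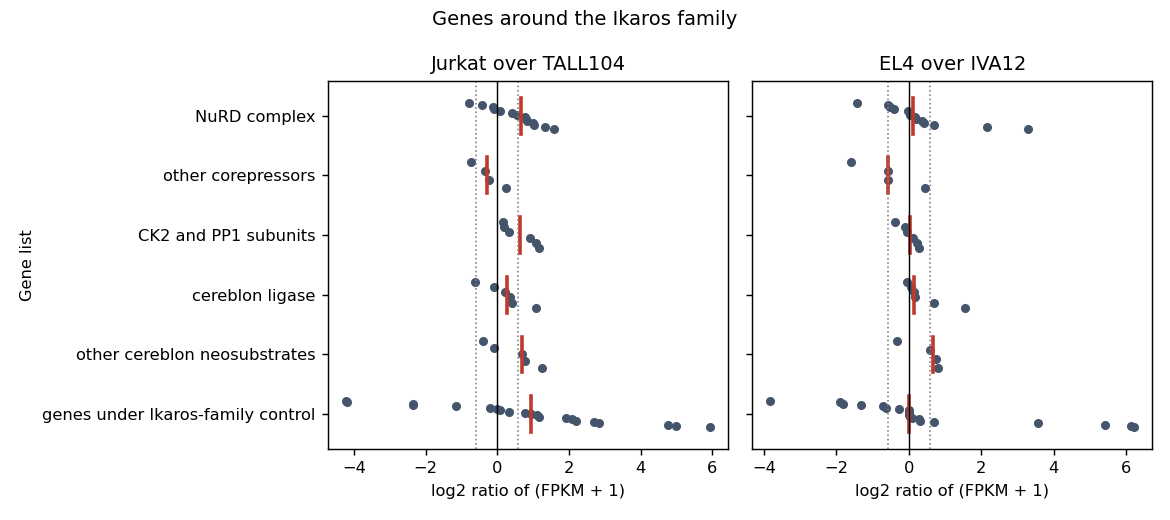
Log2 ratio of FPKM + 1 of each gene (points) in 6 lists of genes around the Ikaros family, Jurkat over TALL104 on the left and EL4 over IVA12 on the right, with the list median as a red line and dotted lines at 1.5-fold. Medians run from -0.28 to 0.95 in the human pair and from -0.58 to 0.66 in the mouse pair, and the genes under Ikaros-family control spread widest.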

How the data were processed

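Stranded messenger RNA libraries of 4 cell lines had been sequenced, 1 per line. Per the labels and the study's methods, the authors aligned reads with STAR 2.5.1b to a combined human hg19 and mouse mm10 reference from Cell Ranger 1.2.0 and counted them per gene with featureCounts 1.6.3. The authors deposited FPKM. How gene lengths were set, whether strand was used and how reads aligned to several places were treated is not given in the sources used here. The table held 0 further columns of samples.

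Since FPKM divides whole reads by gene length and library total, totals and reads were solved for at a relative tolerance of 1e-12 with gene lengths up to 300000 bases. All values above 0 came out whole, 23339 (Jurkat), 21866 (TALL104), 20025 (EL4) and 25178 (IVA12) of them. The length equaled that of the annotated exons for 22.2% of the expressed human and 72.8% of the expressed mouse genes, so some genes may lack a common factor of reads. Intervals at 95% are exact Poisson, or exact binomial on the reads of a pair for ratios, and cover counting error only. Models for counts need replicates and were not used.

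Symbols and positions came from GENCODE release 44 on GRCh37 and mouse release M21 on GRCm38, matched by gene identifier, which named 31182 human and 27645 mouse genes and left 1556 and 353 without a symbol. Coding sequences were translated to find zinc fingers. Lines were compared within a species on FPKM + 1 with a limit of 1.5-fold. The members, the 9 gene lists and the limits were chosen with earlier results of these data known. Named genes were all members, in each list and pair the 2 with the largest absolute log2 ratio among those at 1 FPKM in either line, CRBN, CHD4, CD3E, MS4A1 and JCHAIN with their mouse counterparts, and the 3 nearest genes of each member at 10 FPKM or more. A further named item is not reported here. THEMIS and other neighbors were thus taken from the measured pattern. Alternatives were pseudocounts of 0.1 and 0.01, scaling to equal own-species totals with and without mitochondrially encoded genes or by the median ratio, a 2-fold limit, a minimum of 1 FPKM in either line, detection at 0.1 and 5 FPKM and shares of reads. The calculation was tested on simulated data. The simulation used annotated gene lengths, so it could not test genes with another length, such as IKZF3. Python 3.11.15, NumPy 2.4.6, pandas 2.3.3, SciPy 1.17.1, Biopython 1.88 and matplotlib 3.10.9 were used.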

Additional observations from a re-analysis of the deposited data

Results flagged for a closer look

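Reads were listed on members of the other species, in libraries where those genes were not part of any comparison, above the 3 reads that a count of 0 allows. Mouse Ikzf1 had 21 reads in the human line Jurkat and 19 in TALL104. Human IKZF1 had 11 reads in the mouse line EL4 and 5 in IVA12, and human IKZF2 had 5 reads in IVA12. Summed over the 5 members, such reads came to 0.0740% (Jurkat), 0.0955% (TALL104), 0.0198% (EL4) and 0.112% (IVA12) of the own-species member reads. Over all genes the same share was 0.0405%, 0.0376%, 0.0497% and 0.213%. The human and mouse transcripts of IKZF1 shared 4 stretches of read length and those of IKZF2 shared 81, and their part in these reads was not tested.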

How the results depend on the processing

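Under the alternatives tried, 3 human members passed the limit except at 2-fold, where 2 did, because IKZF2 at a log2 ratio of 0.74 dropped out. In mouse 3 members passed except with pseudocounts of 0.1 and 0.01, where 4 did, because Ikzf4 reached 1.01 and 1.95. Of 50 member ratios recomputed, 36 moved by less than the counting range, 14 by more, and 0 that had passed the limit changed sign. Scaling by the median ratio or to equal totals without mitochondrially encoded genes moved IKZF1 from 0.02 to -0.09 and -0.08, inside the limits, and IKZF2 to 0.63 and 0.64. Smaller pseudocounts widened the ratios of low members, that of IKZF4 to -3.67 and -6.13 and that of Ikzf2 to 7.75 and 10.2. Of 35 list medians recomputed, 13 moved by over 0.1. Depth limits IKZF4 in Jurkat, with 2 reads, and Ikzf2 in IVA12, with 3. With 1 library per line, variation between cultures is unknown. No paired analysis was possible because each line has 1 library.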
